A study of Mus musculus with 17 samples.

Results

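The 10 genes described here encode precursors of secreted peptides, and were taken by their symbols from the 26556 genes of the count data. They are *Agt*, the neuropeptide precursors *Cck*, *Npy*, *Sst*, *Penk*, *Tac1*, and *Adcyap1*, and the granins and granin-like genes *Scg2*, *Vgf*, and *Chgb*. Each was followed over the cortex, dLG (dorsolateral geniculate nucleus), VPM (ventral posteromedial nucleus), and MGv (ventral division of the medial geniculate nucleus). The levels were then set beside those of 3 neuronal genes, *Snap25* and *Syt1* of the synaptic vesicle release machinery and *Slc17a6*, the vesicular glutamate transporter of thalamic neurons.

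The libraries come from cells of postnatal day 7 (P7) *Gfap::Gfp* mice of the FVB strain (by the study's methods, on an FVB/N-Tg background), labelled as astrocytes, with 4 brains pooled for each library. The cortex gave 4 libraries, the dLG 5, the VPM 4, and the MGv 4, so that the thalamus is represented by 13 libraries. All groups carry the same reporter, in which the *Gfap* promoter drives green fluorescent protein, and cells were purified by their fluorescence (FACS). Nothing says which brains entered which library, so that p values measure the spread between these pooled libraries.

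Neuropeptides are cut from larger precursors and released from dense-core vesicles, in which granins are packed with them and are themselves cut into peptides. *Cck*, *Npy*, *Sst*, *Penk*, *Tac1*, *Scg2*, *Vgf*, and *Chgb* are best known in the brain as genes of neurons. *Agt* stands apart: it encodes angiotensinogen, the substrate of renin, and in the brain it is chiefly a gene of astrocytes.

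Totals ranged from 18213687 to 50366363 counts per library, of which the highest was that of cortex replicate a, and the others reached at most 21519981. A level of 3 counts corresponded to between 0.0596 and 0.165 CPM (counts scaled to a common library total), and this floor covers counting error only. The 9 astrocyte markers together held between 12404 and 13317 CPM in cortical libraries, 7404 and 8810 in those of the dLG, 6347 and 8704 in those of the VPM, and 5941 and 15084 in those of the MGv, and the 7 markers of the oligodendrocyte lineage between 5633 and 10398 CPM. *Gfap* itself ranged over 450 to 538 CPM among cortical libraries, 78.3 to 1310 in those of the dLG, 8.98 to 19.3 in those of the VPM, and 36.1 to 5525 in those of the MGv. The 10 neuronal markers held between 1352 and 1651 CPM in cortical libraries, 1623 and 2086 in those of the dLG, 1091 and 2096 in those of the VPM, and 922 and 2397 in those of the MGv. Replicate c of the dLG was the single library of its library number series and had the fewest genes detected, 17749. In bulk samples, a lower share of cells that express a gene and less RNA per cell cannot be told apart.

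All 10 genes passed the filter on low counts and were tested among 17856 genes. Between thalamus and cortex, 5 of the 10 were called, at an adjusted p under 0.1 in edgeR, and all 5 were higher in the thalamus: *Agt*, *Vgf*, *Scg2*, *Cck*, and *Tac1*. Of all genes tested, 11.4% were called in either direction and 5.45% as higher in the thalamus. The median log2 fold change (log2FC) of the 10 genes was 1.68, beside 0.02 over all genes tested. In 4 genes (*Agt*, *Vgf*, *Scg2*, and *Tac1*) no thalamic library overlapped with a cortical one, a lack of overlap found in 4.77% of the genes tested. *Npy*, *Sst*, *Adcyap1*, *Penk*, and *Chgb* were not called. In a fit of 4 groups that weighs the 3 nuclei equally, 8 genes were called, where 15.6% of all genes were. There *Npy*, *Sst*, and *Adcyap1* were lower in the mean of the nuclei, but not in each nucleus. Against the cortex, all 3 were called lower in the VPM, where *Adcyap1* had no count. Of the 3, *Sst* alone was called lower in the MGv, and *Adcyap1* alone in the dLG. Of the 10, 6 were called between thalamus and cortex without dLG replicate c, beside 2331 of 17753 genes tested. Without cortex replicate a, 4 were called, beside 1462 of 18478.

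*Agt* lies on the minus strand at chr8:124556534-124569706 (GRCm38). The 100 bases before its annotated start, shown because *Agt* had the lowest p of the 10 genes, are on the minus strand at chr8:124569707-124569806 (RefSeq, GRCm38.p6), written 5′ to 3′ with a TATA box (TATAAA) in capitals that begins 30 bases before the start.
Agt: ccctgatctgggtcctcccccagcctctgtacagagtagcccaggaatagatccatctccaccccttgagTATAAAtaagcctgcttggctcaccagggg
These letters, on either strand, are in 13.6% of all 32851 promoter windows of 300 bases (250 before and 50 after the start), and no part of the stretch shown is exonic in GENCODE.

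In the cortex *Agt* was at 53.5, 60.2, 49.5, and 52.1 CPM in replicates a to d. The dLG libraries were at 691, 689, 862, 608, and 591 CPM, and the VPM libraries at 656, 782, 898, and 863 CPM. The MGv libraries were at 585, 1217, 1217, and 673 CPM. Every thalamic library thus lay far above all cortical ones, and the 3 nuclei overlapped with each other. Thalamus and cortex differed by a log2FC of 3.88 ± 0.24 (SE, adjusted p = 9.67e-10 in edgeR). Library numbers fall into 2 main series. Within the first, of 10 libraries with all of the MGv among them, the log2FC was 4.08 (adjusted p = 3.27e-05 in edgeR), and within the second, of 6 libraries with none of the MGv, it was 3.55 (adjusted p = 0.000616). Against the cortex, each nucleus was higher, by a log2FC of 3.68 ± 0.22 (dLG), 3.89 ± 0.23 (VPM), and 4.10 ± 0.23 (MGv). The order of the means was MGv (923 ± 341 CPM, SD, n = 4), VPM (799.9 ± 107, n = 4), dLG (688 ± 107, n = 5), and cortex (53.8 ± 4.56, n = 4). The astrocyte markers moved otherwise: of 9, *Slc1a3*, *Aldoc*, and *Slc1a2* were called lower in the thalamus, with log2FC of -1.72 ± 0.11, -1.04 ± 0.13, and -1.16 ± 0.22, and *S100b* higher, with 0.84 ± 0.21, and their part in the difference of *Agt* was not tested. Neither the MGv and VPM nor the VPM and dLG differed beyond their spread, with adjusted p values of 0.572 and 0.510 in edgeR.

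*Agt* was the highest of the 10 genes per length of exon in each nucleus, with the dLG at 364 CPM per kb, the VPM at 423, and the MGv at 488. In the cortex it stood at 28.5 CPM per kb, below *Chgb* at 34.0. Over the 17 libraries, the genes whose log2 levels ran most like those of *Agt* were *C1ql2* (Pearson r = 0.98), *Otx2* (r = 0.98), and *Irx5* (r = 0.98), among 11659 genes with a mean of at least 5 CPM. These correlations are a description over libraries that share the 4 groups, as are those given for the other genes.

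**Figure D1:**
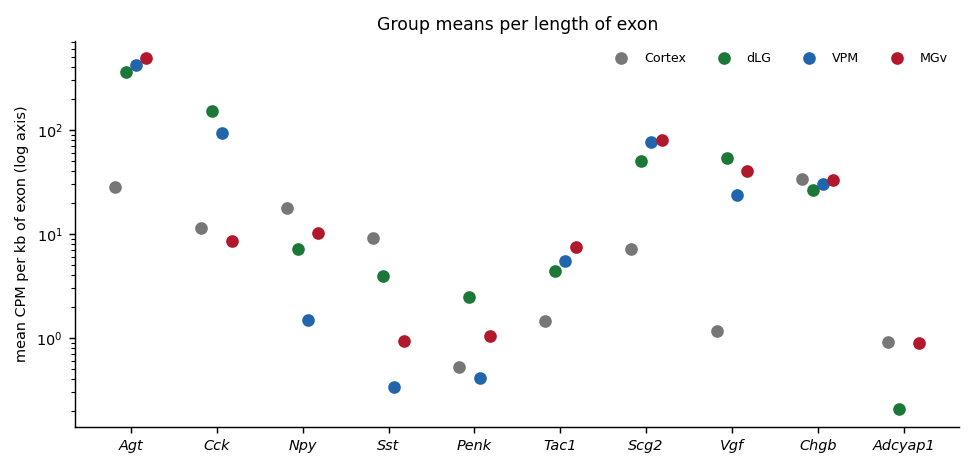
Group means of the 10 genes in CPM per kb of exon on a log axis, 1 point for each of the cortex, dLG, VPM, and MGv. *Agt* lies highest in each nucleus, from 364 to 488 CPM per kb, and *Adcyap1* has no point for the VPM, where no library held a count.

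Of the renin-angiotensin genes, 10 of 11 are in the count data and 7 were tested, with a median log2FC of -0.15. Of the 7, 1 was called higher and 2 lower in the thalamus, beside 11.4% of all genes called in either direction. *Agtr2*, an angiotensin II receptor, had no count in any cortical library and a mean of 0.62 ± 0.64 CPM (SD, n = 13) in the thalamus, which is at least 4.92-fold higher than the mean floor of 3 counts in the cortical libraries (adjusted p = 0.0393 in edgeR). *Mas1*, the receptor of angiotensin-(1-7), was lower, with a log2FC of -3.86 ± 0.85 (adjusted p = 0.00589 in edgeR), and *Ace*, the angiotensin-converting enzyme, was lower as well, with -0.98 ± 0.35 (adjusted p = 0.0982 in edgeR). *Ren1*, which encodes renin, had at most 12 counts in any cortical library and at most 4 in the VPM.

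*Vgf*, *Scg2*, and *Chgb* encode the granin-like precursors of the set, which are packed into dense-core vesicles. *Vgf* and *Scg2* were higher in every nucleus than in the cortex, and *Chgb* was not called in any comparison.

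*Vgf* (plus strand, chr5:137026392-137033351) was at 1.95, 3.79, 3.57, and 4.59 CPM in the cortex. The dLG libraries were at 116, 195, 213, 117, and 155 CPM. The VPM libraries were at 86.5, 23.8, 53.1, and 117 CPM, and the MGv libraries at 231, 57.8, 35.7, and 149.5 CPM. The lowest thalamic library, VPM replicate b, was still above all of the cortex, and the VPM and MGv spread widely. The log2FC of thalamus against cortex was 5.12 ± 0.62 (adjusted p = 1.20e-05 in edgeR), the largest of the 10, and it was 4.88 within the first series and 5.11 within the second series, called in both. Against the cortex it was 5.54 ± 0.58 (dLG), 4.36 ± 0.56 (VPM), and 5.12 ± 0.58 (MGv). The order of the means was dLG (159 ± 44.3 CPM, SD, n = 5), MGv (118 ± 89.6, n = 4), VPM (70.1 ± 40.4, n = 4), and cortex (3.47 ± 1.11, n = 4), and no pair of nuclei was called.

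*Scg2* (minus strand, chr1:79434669-79440120), the precursor of secretoneurin, was at 22.6, 20.1, 10.3, and 19.0 CPM in the cortex and at 144, 172, 108, 120, and 86.0 CPM in the dLG. The VPM libraries were at 231, 83.8, 136, and 326 CPM, and the MGv libraries at 509, 49.9, 49.0, and 191 CPM. MGv replicate a held the most *Scg2* of all libraries, and replicates b and c were the lowest of the thalamus. Thalamus and cortex differed by a log2FC of 3.23 ± 0.57 (adjusted p = 0.000899 in edgeR), which was 3.75 within the first series and 2.61 within the second series, called in both. Each nucleus was higher than the cortex, by 2.80 ± 0.58 (dLG), 3.42 ± 0.61 (VPM), and 3.46 ± 0.61 (MGv), and no pair of nuclei was called.

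*Chgb* (plus strand, chr2:132781278-132795079), chromogranin B, was at 87.4, 102, 88.2, and 95.9 CPM in the cortex and at 69.3, 85.4, 78.9, 79.6, and 49.2 CPM in the dLG. The VPM libraries were at 99.5, 45.7, 76.4, and 106 CPM, and those of the MGv at 122, 50.1, 67.3, and 120 CPM. The cortex and the VPM and MGv overlapped, and the highest dLG library stayed below the lowest of the cortex. The log2FC of thalamus against cortex was -0.21 ± 0.22 (adjusted p = 0.639 in edgeR), and no pair of groups was called.

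Of the 4 other granins, *Scg3* was lower in the thalamus, with a log2FC of -0.70 ± 0.12 (adjusted p = 0.000559 in edgeR), from 646 ± 55.9 CPM (SD, n = 4) to 398 ± 60.6 CPM (SD, n = 13), and *Chga*, *Scg5*, and *Pcsk1n* were not called. The median log2FC of these 4 was 0.08. Of 12 genes that process prohormones, 2 were called lower in the thalamus and none higher, beside 11.4% of all genes called in either direction. *Mme*, the peptidase neprilysin, was at 2.02 ± 0.84 CPM in the cortical libraries (SD, n = 4) and at a mean of 0.0146 CPM in those of the thalamus, and *Pcsk5*, a proprotein convertase, had a log2FC of -1.01 ± 0.26 (adjusted p = 0.0188 in edgeR). The median log2FC of the 12 was -0.20.

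*Cck* and *Tac1* were higher in the thalamus as well, but *Cck* (minus strand, chr9:121489824-121495694) differed between nuclei. This precursor of cholecystokinin was at 15.5, 17.8, 13.5, and 12.7 CPM in the cortex. The dLG libraries were at 140, 247, 229, 117, and 259 CPM, and those of the VPM at 120, 58.9, 89.3, and 218 CPM. The MGv libraries were at 23.0, 3.94, 3.28, and 14.3 CPM. The dLG and VPM thus lay above all of the cortex and MGv, which overlapped with each other. The order of the means was dLG (198 ± 65.3 CPM, SD, n = 5), VPM (122 ± 69.0, n = 4), cortex (14.9 ± 2.24, n = 4), and MGv (11.1 ± 9.37, n = 4), and the dLG and VPM did not differ beyond their spread (adjusted p = 0.336 in edgeR), nor did the cortex and MGv (adjusted p = 0.640).

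Against the cortex, *Cck* was higher by a log2FC of 3.73 ± 0.51 in the dLG (adjusted p = 5.32e-05 in edgeR) and 3.03 ± 0.50 in the VPM (adjusted p = 0.000555). The MGv was lower than the dLG by a log2FC of -4.15 ± 0.52 (adjusted p = 0.000205), and the VPM higher than the MGv by 3.45 ± 0.51 (adjusted p = 0.000645). These 4 calls of *Cck* also held within the first library number series, with log2FC of 3.89, 3.53, -4.11, and 3.75. For the whole thalamus the log2FC was 2.97 ± 0.94 (adjusted p = 0.0579), and that call was lost within the first series (log2FC 2.81, adjusted p = 0.453), while the log2FC was 3.09 within the second series (adjusted p = 0.0510). It was also lost when any 1 of the 4 cortical libraries was left out, at log2FC between 2.94 and 3.07.

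The 100 bases before the start of *Cck*, shown because of these differences between nuclei, are on the minus strand at chr9:121495695-121495794 (RefSeq, GRCm38.p6). In capitals is the core of the cAMP response element (TGACG, or CGTCA when read on the other strand), which begins 47 bases before the start and is in 20.8% of all promoter windows.
Cck: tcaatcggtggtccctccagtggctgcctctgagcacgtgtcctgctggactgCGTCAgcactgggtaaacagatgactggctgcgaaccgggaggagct
Over the 17 libraries, the genes most like *Cck* were *Pnoc* (r = 0.92), *Lyn* (r = 0.90), and *Gal* (r = 0.90), and *Pnoc* and *Gal* are neuropeptide precursors themselves.

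*Tac1* (plus strand, chr6:7554879-7565834), the precursor of substance P and neurokinin A, was at 4.21, 5.41, 5.60, and 4.73 CPM in the cortex. The dLG libraries were at 13.8, 15.7, 9.78, 14.0, and 20.7 CPM, those of the VPM at 21.8, 19.9, 15.5, and 16.7 CPM, and those of the MGv at 33.3, 27.4, 15.3, and 25.8 CPM. No thalamic library reached down to the cortex, and the nuclei overlapped. The log2FC of thalamus against cortex was 1.95 ± 0.28 (adjusted p = 8.56e-05 in edgeR), and it was 1.99 within the first series and 2.01 within the second series, called in both. It was 1.57 ± 0.24 (dLG), 1.89 ± 0.25 (VPM), and 2.35 ± 0.25 (MGv), each called, with no pair of nuclei called. The genes most like *Tac1* were *Vwc2* (r = 0.97), *Ggct* (r = 0.93), and *Irx5* (r = 0.91).

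**Figure D2:**
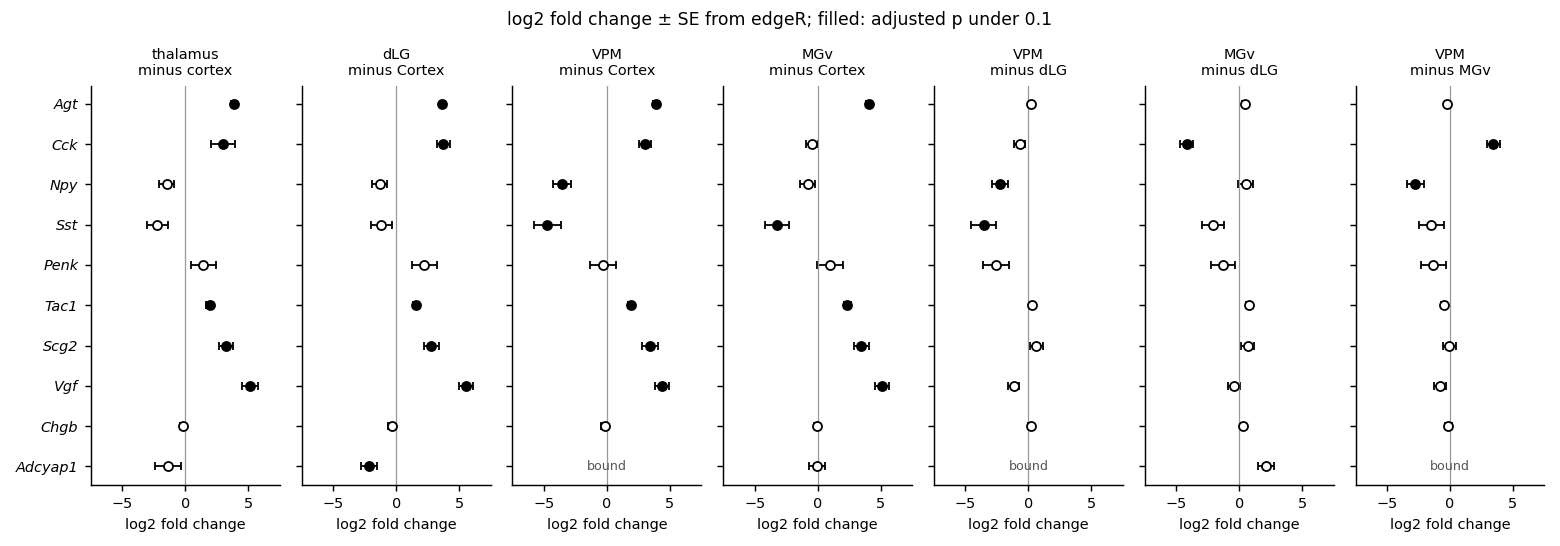
The log2FC with its SE (horizontal axes) of the 10 genes (vertical axis) in the comparison of thalamus and cortex and in the 6 pairs of groups, from edgeR, filled where the adjusted p is under 0.1. *Agt*, *Vgf*, *Scg2*, and *Tac1* are filled to the right in each comparison with the cortex and open between nuclei, and *Adcyap1* is marked as a bound where the VPM had no count.

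*Npy*, *Sst*, and *Adcyap1* were lowest in the VPM. *Npy* and *Sst* encode neuropeptide Y and somatostatin, which mark classes of cortical interneurons, and *Adcyap1* encodes the peptide PACAP. In the VPM, 8 of the 10 genes differed from the cortex, where 9.00% of all genes did, 5 of them higher and these 3 lower. The same 3 were the genes called lower in the VPM than in the dLG, where 13.7% of all genes were called.

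*Npy* (plus strand, chr6:49822710-49829507) was at 6.68, 20.9, 8.17, and 4.68 CPM in the cortex and at 9.55, 1.39, 4.16, 1.19, and 3.94 CPM in the dLG. The VPM libraries were at 0.81, 0.78, 0.95, and 0.84 CPM, and the MGv libraries at 1.49, 11.1, 5.61, and 4.85 CPM. All VPM libraries lay below those of the other groups, which overlapped, and their SD was 0.0741 CPM around a mean of 0.85 CPM. The VPM was lower than the cortex by a log2FC of -3.57 ± 0.69 (adjusted p = 0.00241 in edgeR), than the dLG by -2.25 ± 0.65 (adjusted p = 0.0422), and than the MGv by -2.76 ± 0.67 (adjusted p = 0.0180). For *Npy* the difference between VPM and cortex was not called within the first series (log2FC -2.85, adjusted p = 0.140) and was called within the second series (log2FC -4.11, adjusted p = 0.0939). The VPM and dLG were not called apart within either series (log2FC -2.65 and -1.73), nor without VPM replicate a or d. Thalamus and cortex as wholes gave a log2FC of -1.49 ± 0.62 (adjusted p = 0.161).

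*Sst* (minus strand, chr16:23889573-23890958) was at 5.79, 15.2, 3.02, and 2.12 CPM in the cortex and between 0.35 and 7.66 CPM in the dLG, where replicates a to e held 81, 23, 162, 7, and 29 counts. The VPM held 0, 3, 11, and 5 counts of it in replicates a to d, a mean of 0.24 ± 0.23 CPM (SD, n = 4), and the MGv held 2, 24, 8, and 22 counts, a mean of 0.68 ± 0.53 CPM. The cortex lay above all VPM and MGv libraries and overlapped with the dLG. The log2FC against the cortex was -4.73 ± 1.06 in the VPM (adjusted p = 0.00743 in edgeR) and -3.25 ± 0.96 in the MGv (adjusted p = 0.0373), and the VPM was below the dLG by -3.55 ± 1.00 (adjusted p = 0.0389). Within the first series these values for *Sst* were -2.69, -1.90, and -2.64, none of them called, and within the second series the VPM differed from the cortex by -6.96 (adjusted p = 0.0686) and from the dLG by -3.48 (adjusted p = 0.720). Without cortex replicate b, the MGv and the cortex were not called apart (log2FC -2.42, adjusted p = 0.166 in edgeR), and without VPM replicate a, the VPM and dLG were not (log2FC -3.17, adjusted p = 0.105). With the series as a covariate, *Sst* in the VPM and dLG was not called apart either (log2FC -2.77, adjusted p = 0.104 in edgeR).

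*Adcyap1* (plus strand, chr17:93199017-93206537) had no count in any of the 4 VPM libraries. It was at 4.19, 4.08, 3.22, and 2.41 CPM in the cortex, at 0.75, 0.24, 0.90, 0.40, and 1.62 CPM in the dLG, and at 0.67, 2.54, 2.47, and 7.80 CPM in the MGv. The cortex lay above the dLG in every library, and the MGv overlapped with both. Against the mean floor of 3 counts in the VPM libraries, 0.152 CPM, *Adcyap1* was at least 22.8-fold lower in the VPM than in the cortex (adjusted p = 0.000108 in edgeR), at least 22.1-fold lower than in the MGv (adjusted p = 0.000418), and at least 5.12-fold lower than in the dLG (adjusted p = 0.00482). The dLG was lower than the cortex by a log2FC of -2.15 ± 0.65 (adjusted p = 0.0386). For *Adcyap1* the calls of the VPM against the cortex and against the MGv held within the first series (adjusted p = 0.0195 and 0.0182 in edgeR), and the calls that involve the dLG did not hold within either series.

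The 7 markers of inhibitory neurons did not move as 1 group. They summed to between 39.1 and 96.8 CPM among cortical libraries, 65.6 and 129.7 for the dLG, 22.8 and 27.9 for the VPM, and 22.3 and 33.4 for the MGv. *Dlx1*, *Dlx2*, and *Lhx6*, which mark forebrain interneurons and their precursors, were called lower in the thalamus, and *Lhx6* had no count in any MGv library. *Gad1*, a GABA-synthesizing enzyme, was at a mean of 17.9 CPM in the cortex, 28.4 in the dLG, 23.5 for the VPM, and 23.8 for the MGv, so that it made up most of the VPM sum, and it was called higher in the dLG than in the cortex (log2FC 0.67 ± 0.21, adjusted p = 0.0428 in edgeR). *Sp9*, a transcription factor of interneuron lineages, was at 59.1 CPM in the dLG, 7.52 in the cortex, 2.39 in the MGv, and 0.44 in the VPM. *Gad2* and *Slc32a1*, the vesicular GABA transporter, were also lower in the VPM than in the cortex, with log2FC of -3.78 ± 0.84 and -3.71 ± 0.98, both called. *Gfap*, whose promoter drives the reporter, was also lowest in the VPM. The part of these markers or of *Gfap* in the levels of *Npy*, *Sst*, and *Adcyap1* was not tested.

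The receptor of PACAP, *Adcyap1r1*, is named after its values were seen. It had a mean of 292 CPM in the cortex, 475 in the dLG, 218 for the VPM, and 487 for the MGv, and the VPM was lower than the dLG by a log2FC of -1.12 ± 0.26 (adjusted p = 0.0179 in edgeR) and than the MGv by -1.16 ± 0.27 (adjusted p = 0.0149). Of the 19 receptors of these peptides, 13 were tested between thalamus and cortex, with a median log2FC of -0.14. *Vipr2* and *Vipr1*, receptors that bind PACAP and VIP, were lower, with log2FC of -1.09 ± 0.26 (adjusted p = 0.00959 in edgeR) and -3.13 ± 0.86 (adjusted p = 0.0280). None was called higher in the thalamus as a whole, beside 11.4% of all genes called in either direction. Taken singly, the dLG and the MGv were each called higher than the cortex in *Adcyap1r1*.

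*Penk* (minus strand, chr4:4133531-4138819), the precursor of enkephalins, was at 16.9 CPM, or 358 counts, in dLG replicate c. In the other 16 libraries it was between 0.24 and 3.06 CPM, which overlapped between all groups. The dLG mean of 4.07 ± 7.20 CPM (SD, n = 5) rests on that library. No comparison of *Penk* was called, and the log2FC of thalamus against cortex was 1.41 ± 0.99 (adjusted p = 0.453 in edgeR). In GENCODE, 14.3% of its exonic bases are overlapped by a gene on the opposite strand, and whether reads were counted by strand is not given in the sources used here. The genes most like *Penk*, *Zc3h6* (r = 0.90), *Kif16b* (r = 0.86), and *Zbtb22* (r = 0.83), were ranked with the same library included.

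In the remaining pairs of groups, 6 of the 10 genes were called between the dLG and cortex, where 19.4% of all genes were, and 5 between the MGv and cortex, where 15.4% were. Between nuclei the numbers were lower. *Cck* was the 1 gene called between the MGv and dLG, a pair in which 1.02% of all genes were called. Between the VPM and MGv, 3 genes were called, *Cck* higher in the VPM and *Npy* and *Adcyap1* lower, where 15.4% of all genes were called. The comparisons with the cortex share its 4 libraries, and those with a nucleus share that nucleus.

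Of 24 other neuropeptide precursors, 21 are in the count data and 14 were tested, with a median log2FC of -0.35. Of the 14, 2 were called higher in the thalamus and 3 lower, beside 11.4% of all genes called in either direction. *Gal*, the precursor of galanin, was higher by a log2FC of 4.93 ± 1.08 (adjusted p = 0.00564 in edgeR), and *Pnoc*, the precursor of nociceptin, by 3.17 ± 0.89 (adjusted p = 0.0315). Both were low in the MGv, *Gal* at a mean of 1.65 CPM against 13.1 in the dLG and 22.3 in the VPM, and *Pnoc* at 2.15 CPM against 21.2 and 8.01. *Vip* fell, with a log2FC of -4.71 ± 0.72, as did *Pdyn*, the precursor of dynorphins, with -3.44 ± 1.06, and *Nppc*, the precursor of C-type natriuretic peptide, with -0.90 ± 0.31. No *Pdyn* count was found in the VPM.

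The genes were then related to the neuronal genes within groups, to ask whether libraries of the same group that held more neuronal RNA also held more of each precursor. For each gene, log2(CPM + 0.5) was centred within the 4 groups and compared over the 17 libraries with the mean of *Snap25*, *Syt1*, and *Slc17a6*, centred in the same way. Of the 10 precursors, 4 rose with the neuronal genes: *Scg2*, *Chgb*, *Cck*, and *Vgf*. The relation was computed for the 10 precursors alone. The share of all genes that would pass is not known, so 4 of 10 cannot be called many or few. The neuronal genes varied most in the MGv, where *Snap25* was at 234, 62.8, 80.0, and 175 CPM, *Syt1* at 224, 52.6, 38.6, and 147 CPM, and *Slc17a6* at 112, 22.8, 30.1, and 115 CPM in replicates a to d. Replicates a and d were thus high and b and c low in each of the 3 genes.

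*Scg2* gave r = 0.94 and rho = 0.91, with a permutation p of 0.000138 for r and 0.00146 for rho (2-sided, exact over 1658880 arrangements of the libraries within groups) and adjusted values over the 10 genes of 0.000690 and 0.00728. *Chgb* gave r = 0.91 and rho = 0.93 (permutation p = 2.77e-05 and 3.98e-05, adjusted 0.000277 and 0.000398). *Cck* gave r = 0.91 and rho = 0.81 (permutation p = 0.00174 and 0.00975, adjusted 0.00436 and 0.0244). *Vgf* gave r = 0.90 and rho = 0.87 (permutation p = 0.00168 and 0.00379, adjusted 0.00436 and 0.0126). Without MGv replicates a and b, the 2 libraries farthest from the median, r was 0.93 for *Scg2*, 0.89 for *Chgb*, 0.86 for *Cck*, and 0.89 for *Vgf*.

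The size of the relation differed among the 4 genes. Per log2 unit of the neuronal genes, *Scg2* changed by 1.39 log2 units, *Vgf* by 1.15, *Cck* by 1.13, and *Chgb* by 0.63. Within the 10 libraries of the first series alone, r lay between 0.96 and 0.98 for these 4 genes. Of the single neuronal genes, *Syt1* gave the highest r with *Vgf* (0.98) and *Cck* (0.94), and *Snap25* with *Scg2* (0.95) and *Chgb* (0.92). *Syt1* gave 0.89 with *Scg2* and 0.82 with *Chgb*, and *Slc17a6* gave between 0.81 (*Vgf*) and 0.89 (*Scg2* and *Chgb*). *Snap25* gave 0.79 with *Cck* and 0.76 with *Vgf*, which did not pass by rho (adjusted permutation p = 0.141 and 0.105).

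**Figure D3:**
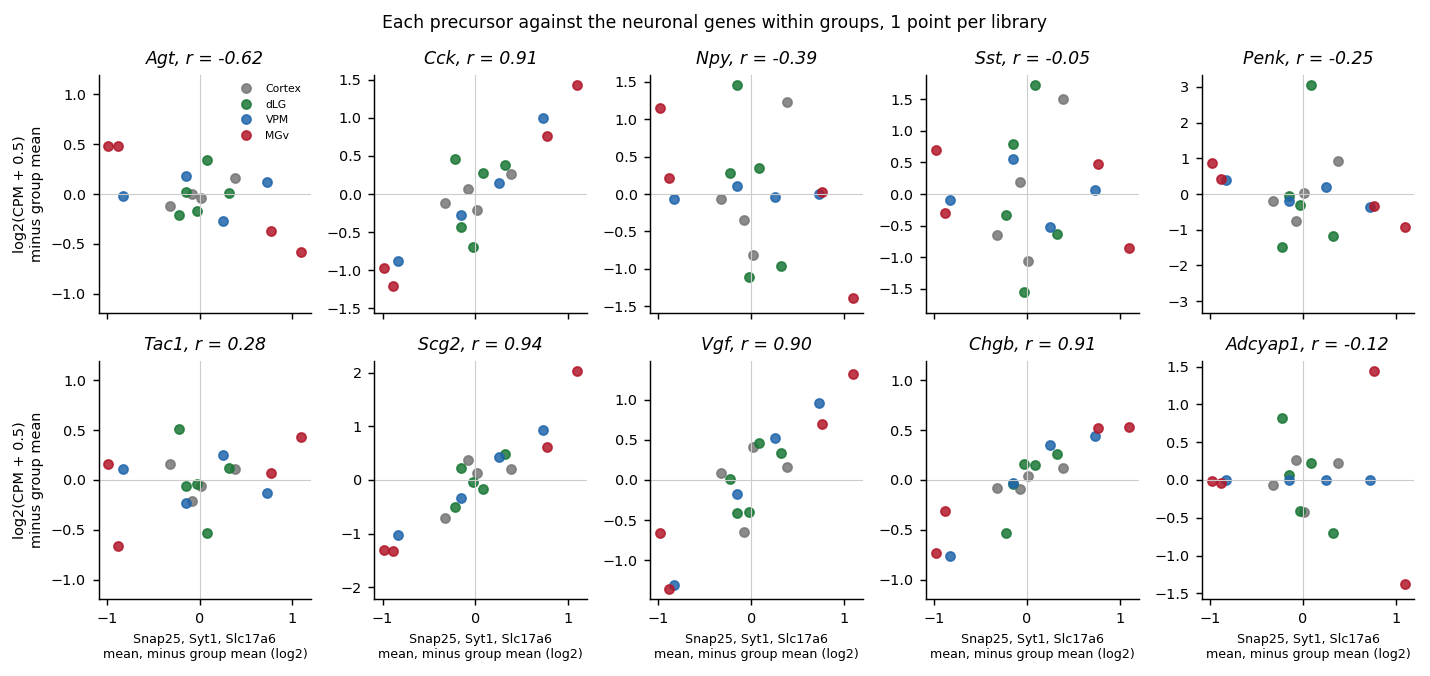
The log2(CPM + 0.5) of each of the 10 genes minus the group mean (vertical axes) against the mean of *Snap25*, *Syt1*, and *Slc17a6* minus the group mean (horizontal axes, log2), 1 point per library coloured by group. The points of *Scg2*, *Chgb*, *Cck*, and *Vgf* rise along a line with r between 0.90 and 0.94. Those of *Agt* fall in the MGv but not in the cortex or dLG, and their r of -0.62 over all libraries did not pass.

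The other 6 genes did not pass, with adjusted permutation p values between 0.331 and 0.815 for r. *Agt* gave r = -0.62 and rho = -0.42 (permutation p = 0.232 and 0.272, exact), and without the 2 farthest libraries its r was -0.35. Its fall was not shared by all groups. In the cortex, replicate b was highest and c lowest both in *Agt* and in the mean of the neuronal genes, and in the dLG replicate e was lowest in both. In the MGv, *Agt* was at 1217 CPM in the 2 libraries low in neuronal genes, and at 585 and 673 CPM in the 2 that were high. *Tac1* gave r = 0.28, *Sst* r = -0.05, *Adcyap1* r = -0.12, *Penk* r = -0.25, and *Npy* r = -0.39. Against 8 astrocyte markers without *Gfap*, a measure chosen after the data were seen, *Agt* gave r = 0.65 (permutation p = 0.0190, adjusted over the 10 genes 0.168, exact), and none of the 10 genes passed. That astrocyte measure and the neuronal one were themselves related by r = -0.56 over the 17 libraries.

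Between groups, neither the 3 neuronal genes nor these 4 precursors moved as 1 set. *Snap25* had a log2FC of -0.30 in the thalamus and *Syt1* of 0.72, neither called, and *Slc17a6* rose by 3.01 ± 0.46 (adjusted p = 0.000193 in edgeR). The 10 neuronal markers went both ways, with *Nefm* (log2FC 2.29 ± 0.47) and *Nefl* (1.96 ± 0.43), subunits of neurofilaments, called higher in the thalamus and *Rbfox3* (-1.21 ± 0.29) lower, and a median log2FC of 0.18. The log2FC of thalamus against cortex was 5.12 for *Vgf*, 3.23 for *Scg2*, 2.97 for *Cck*, and -0.21 for *Chgb*. *Cck* did not follow *Slc17a6* in every nucleus. In the MGv against the cortex, *Slc17a6* was higher by a log2FC of 2.76 (adjusted p = 0.000928 in edgeR), and *Cck* was not called (adjusted p = 0.640). With the centred level of *Snap25* and *Syt1* as a covariate, the log2FC of thalamus against cortex was 4.99 for *Vgf*, 2.95 for *Scg2*, 2.92 for *Cck*, 3.86 for *Agt*, and 1.94 for *Tac1*, each still called. That covariate carries no difference between groups, so the part of neurons of thalamic type in these differences was not tested.

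*Scg2*, *Chgb*, and *Sst* share the full cAMP response element (TGACGTCA, the same on both strands, which holds the core on each) before their RefSeq starts, and it is shown because it sets *Scg2* and *Chgb*, which ran with the neuronal genes, beside *Sst*, which did not. It begins 68, 72, and 48 bases before these starts. In GENCODE, whose gene spans are those given above, transcripts of the 3 genes begin farther upstream, so that the 3 elements lie inside the annotated genes, and exons of the same gene overlap with the 100 bases before each RefSeq start. The 30 bases around it, with the element in capitals and written 5′ to 3′, are on the minus strand at chr1:79440076-79440105 for *Scg2*, on the plus strand at chr2:132781559-132781588 for *Chgb*, and on the minus strand at chr16:23890874-23890903 for *Sst* (RefSeq, GRCm38.p6).
Scg2: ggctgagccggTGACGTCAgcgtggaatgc
Chgb: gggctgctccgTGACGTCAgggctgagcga
Sst: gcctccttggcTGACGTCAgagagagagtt
The element is in 588 of 32851 promoter windows, or 1.79%. Promoter windows matched 8 of the 10 genes, all but *Penk* and *Vgf*, and the core was in those of 6, *Scg2*, *Chgb*, *Sst*, *Cck*, *Tac1*, and *Adcyap1*. The matches describe letters in these windows.

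The genes most like these precursors over the 17 libraries were *Zmat4* (r = 0.96), *Zfhx3* (r = 0.94), and *Lrfn5* (r = 0.93) for *Scg2*, and *Rbms3* (r = 0.98), *Ntng1* (r = 0.97), and *Shox2* (r = 0.96) for *Vgf*. For *Chgb* they included *Serpini1* (r = 0.92) and *Crmp1* (r = 0.91). Those of *Sst* included *Adgrl2* (r = 0.86) and *Baiap2* (r = 0.84). *Npy* was most like *Clic1* (r = 0.84), *Crip2* (r = 0.84), and *Fgfbp3* (r = 0.83), and *Adcyap1* like *Tgfb2* (r = 0.88), *Mtch1* (r = 0.88), and *Rhcg* (r = 0.87). *Shox2*, of these, had no count in the cortex, and means between 7.73 and 11.5 CPM in the nuclei.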

How the data were processed

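The deposited files hold raw counts of reads per Ensembl gene for each of the 17 libraries, which the authors made by mapping 50-base single reads to mm10 with STAR 2.7.0d and counting with featureCounts of Subread 1.6.4, without normalization. Libraries were grouped by their labelled tissue. Counts were scaled by TMM and tested with edgeR 4.0.16 (robust quasi-likelihood, filterByExpr, Benjamini-Hochberg over all 17856 genes tested, called at an adjusted p under 0.1) for 13 thalamic against 4 cortical libraries and for the 6 pairs of 4 groups in 1 fit. SEs were obtained as |log2FC| over the root of the *F* statistic. Folds against groups without counts use a floor of 3 counts. Correlations used exact permutations within groups. Named besides the 10 genes and the 3 neuronal genes were, from each list, at most the 5 genes with the lowest p among those called between thalamus and cortex, and for likeness the 3 highest genes per precursor, of which some are not reported here. Single marker genes of cell types were named after their values were seen. The genes, lists, and tests were chosen with earlier results of these data known. Alternatives included DESeq2 1.42.0. Tests were tested on simulated data. Gene models were those of GENCODE M21, and promoter sequences came from RefSeq. The software was R 4.3.3 and Python 3.11.15.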

Additional observations from a re-analysis of the deposited data

Results flagged for a closer look

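*Penk* in dLG replicate c, at 16.9 CPM, stood apart from the other 4 dLG libraries, with a gap to the nearest that was 0.922 of the range of the group, above Dixon's 95% critical value for 5 libraries. It was the 1 library so found among 39 sets of a gene and a group, and chance alone gives about 1 in 20. The same library held the highest *Sst* of the dLG, at 7.66 CPM, and the fewest genes detected of all 17.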

How the results depend on the processing

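The calls of *Agt*, *Vgf*, *Scg2*, and *Tac1* between thalamus and cortex, and of each nucleus against the cortex, held under every alternative run, as did the direction of each. Of the log2FC that were followed, 1 changed sign, that of *Penk* in thalamus against cortex within the second series alone (-0.34). DESeq2's size factors in edgeR changed no number of calls by over 1.5 times, but in VPM against MGv 986 of 2617 calls were higher in the VPM, beside 1322 of 2746 with TMM. In thalamus against cortex, the calls among all genes were 934 within the first series and 360 within the second series (fewer libraries), and the precursors called were 8 in the 4-group fit. At an adjusted p under 0.05, the genes called were 1804 in MGv against cortex, 1576 in VPM against MGv, and 1250 in VPM against dLG. Within the first series they were 1637 in MGv against cortex, 63 in MGv against dLG, 1013 in VPM against cortex, 1785 in VPM against MGv, 137 in VPM against dLG, and 954 in dLG against cortex. Within the second series they were 299 in VPM against cortex, 2 in VPM against dLG, and 318 in dLG against cortex. In MGv against dLG, DESeq2 called 412 genes and the fit without the cortex 112, and in VPM against dLG the series as a covariate left 1538. The precursors called in MGv against dLG were 3 by DESeq2 (412 of 21341 genes tested), and 2 with the neuronal level as a covariate (272 of 17856). In VPM against dLG they were 5 by DESeq2 (3530 of 16761 genes) and 5 with the neuronal level as a covariate (2710 of 17856). *Penk* and *Vgf* are the 2 that DESeq2 adds in this pair. By edgeR they were 0 within the first series (137 of 18666 genes) and within the second series (2 of 17269). In each series 3 precursors had an unadjusted p under 0.05 there, beside 2553 and 1171 of all genes. In thalamus against cortex, *Cck* was not called without the filter on low counts, and *Sst* was called with the series as a covariate and without dLG replicate a or c, as *Npy* was without MGv replicate b. The cause was not tested.

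With 1 library left out, the genes called ranged from 1644 to 3627 in MGv against cortex, from 115 to 198 in MGv against dLG, from 1336 to 3710 in VPM against MGv, from 1043 to 3985 in VPM against dLG, from 2204 to 4704 in dLG against cortex, and from 1155 to 2331 in thalamus against cortex, where the numbers were 1231 without cortex replicate b and 1155 without d. The precursors called ranged from 1 to 2 in MGv against dLG. In VPM against dLG they ranged from 1 without VPM replicate a (1043 of 18455 genes) to 5 without dLG replicate d (3985 of 17775 genes).

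Against *Snap25* alone, the rho of *Cck* and *Vgf* did not pass, as given above. With a mean of neuronal genes, the relation of *Scg2*, *Chgb*, *Cck*, and *Vgf* passed by r, at an adjusted p under 0.1, under all alternatives, and by rho under all but 1, the first series alone, where the adjusted p of *Cck* was 0.122. Within that series 7 genes passed by r, *Agt* (r = -0.93), *Npy* (r = -0.69), and *Penk* (r = -0.86) in addition, of which *Agt* did not pass by rho (adjusted p = 0.134). *Npy* also passed by r in the thalamic libraries alone and without cortex replicate b. The weak r of *Sst* turned to 0.058 with a pseudocount of 5, to 0.0026 with 10 neuronal markers, to 0.21 without the 2 farthest libraries, and to 0.13 and 0.075 without MGv replicate a or b. That of *Adcyap1* turned to 0.041 with a pseudocount of 5, 0.31 without the 2 farthest libraries, and 0.40 without MGv replicate a, and lay between -0.59 and 0.40 with 1 library left out. With 1 library left out, that of *Tac1* lay between -0.0041 (without MGv replicate c) and 0.41, and within the first series it was 0.60.

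Of the 24 pairs of libraries of different groups with the same letter, 6 deviated together with r over 0.1 (range -0.17 to 0.27), so that the letters were not taken as pairs. With the letter as a replicate block, the genes called were 1781 in thalamus against cortex, and 4 precursors were called, *Cck* no longer (adjusted p = 0.125 in edgeR). In MGv against dLG the replicate block gave 2 precursors, *Tac1* in addition, beside 171 of 17856 genes. Levels moved by less than 1 SD under other scalings. Depth limits *Sst*, *Npy*, *Penk*, and *Adcyap1* most, with as few as 0 to 14 counts in a library.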
